A study of Mus musculus with 110 samples.

Results

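The 9 genes Adrb1, Adrb3, Adra2a, Gpr3, Adcy3, Adcy5, Pde3b, Pde4d and Prkar2b, which carry the β-adrenergic and cAMP signal of fat cells, were followed through liver, interscapular brown fat (iBAT), inguinal white fat (iWAT) and epididymal white fat (eWAT). They were taken by name, as 9 of the 56884 genes counted in each tissue. All animals were wild-type male C57BL/6N mice, housed singly, fed 1 of 2 cysteine-free diets and 16 weeks old at the end. Ctrl_RT mice received 0.86% and MetR_RT mice 0.12% methionine for 7 days at 22 °C, and Ctrl_CE and MetR_CE mice the same diets for 7 days and then a further 24 h at 4 °C (cold exposure, CE). Cold and the longer time on the diet cannot be told apart. Of 110 bulk RNA-seq libraries from 28 mice (7 per group), 105 were used. They gave 7 per group and tissue except 6 for iBAT Ctrl_RT and Ctrl_CE, iWAT MetR_CE and eWAT MetR_RT and 4 for eWAT Ctrl_RT.

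Noradrenaline released by sympathetic nerves binds β-adrenergic receptors on adipocytes, the G protein Gs then activates adenylyl cyclase, and the cAMP formed releases the catalytic subunits of protein kinase A (PKA) from their regulatory subunits. PKA starts lipolysis and, in brown and beige adipocytes, thermogenesis and the thermogenic gene program, in part through the transcription factor CREB. Receptors coupled to Gi lower cyclase activity and phosphodiesterases break cAMP down, so each of the 9 genes sits at a step that either raises, limits or reads the same second messenger.

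The promoters of Gpr3 and Adrb1 are shown because both genes were higher in iWAT under cold and diet and both hold the short CREB motif TGACG. The RefSeq promoter table (GRCm38.p6, from 250 bases before to 50 after a start site) had 9 promoters for 7 of the genes and none for Adrb3 and Pde3b. The full site TGACGTCA was searched on both strands and was in 0 of the 9 promoters, against 1.79% of all 32851 promoters. The short motif, which lies within the full site, was in 3 of the 9 (Gpr3, Adra2a and Adrb1), against 20.8% of all promoters. It was absent from the promoters of Adcy3, Pde4d and Prkar2b, which were also higher in iWAT under cold and diet. Adra2a, which holds it, was lower in iWAT under both treatments together. A link between the motif and the changes was not tested. Capitals mark the short motif, which in Adrb1 reads TGACG and in Gpr3 is on the opposite strand and therefore reads CGTCA, at 196 and 40 bases before the start. In Adrb1 it is 90 bases before the start, and in Adra2a 69 bases. A missing match says only that these letters are not in the window searched.
Gpr3, chr4:133212487-133212786, minus strand: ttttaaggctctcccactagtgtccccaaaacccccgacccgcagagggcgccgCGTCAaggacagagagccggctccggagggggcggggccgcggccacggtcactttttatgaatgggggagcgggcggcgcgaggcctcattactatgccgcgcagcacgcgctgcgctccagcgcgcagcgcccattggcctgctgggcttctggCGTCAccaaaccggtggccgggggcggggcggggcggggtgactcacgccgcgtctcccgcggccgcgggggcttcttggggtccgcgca
Adrb1, chr19:56721867-56722166, plus strand: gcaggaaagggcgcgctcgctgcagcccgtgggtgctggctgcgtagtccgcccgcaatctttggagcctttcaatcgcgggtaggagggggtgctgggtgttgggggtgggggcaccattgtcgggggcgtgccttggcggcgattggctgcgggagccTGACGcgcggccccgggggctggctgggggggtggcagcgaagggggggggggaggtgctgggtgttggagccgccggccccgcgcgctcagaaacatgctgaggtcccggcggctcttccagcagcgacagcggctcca

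Levels are read counts scaled to library size by TMM (CPM), and to compare genes with each other they were divided by the length of their merged exons in kb. In Ctrl_RT fat the most abundant of the 9 transcripts per kb were Prkar2b and Adrb3. Prkar2b, the RIIβ regulatory subunit of PKA, was at 376 CPM per kb in iBAT, 165 in iWAT and 202 in eWAT. Adrb3, the β3 receptor typical of rodent adipocytes, was at 98.4, 119 and 394 in the same order. The β1 receptor Adrb1 had 14, 2.32 and 5.49 CPM per kb in these depots. The cyclases differed by depot: Adcy3 was at 48.4 CPM per kb in iBAT against 6.47 in iWAT and 4.59 in eWAT, whereas Adcy5 was at 2.19, 30.2 and 61.5. Gpr3, a receptor that activates Gs without a ligand, was the least abundant in iWAT and eWAT, at 0.0139 and 0.0299 CPM per kb, and Adra2a, the Gi-coupled α2A receptor, the least abundant in iBAT at 0.0374. In liver only Pde3b, an insulin-activated phosphodiesterase, and Adrb3 exceeded 1 CPM per kb, at 8.59 and 3.14. Liver and eWAT were each deposited in a count matrix of their own and iBAT and iWAT in 1 shared matrix. Whether the matrices also differ in library preparation or sequencing run is not given in the labels. A difference between matrices could not be told apart from one between tissues, and only iBAT and iWAT share a matrix. These levels were not tested between tissues.

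**Figure D1:**
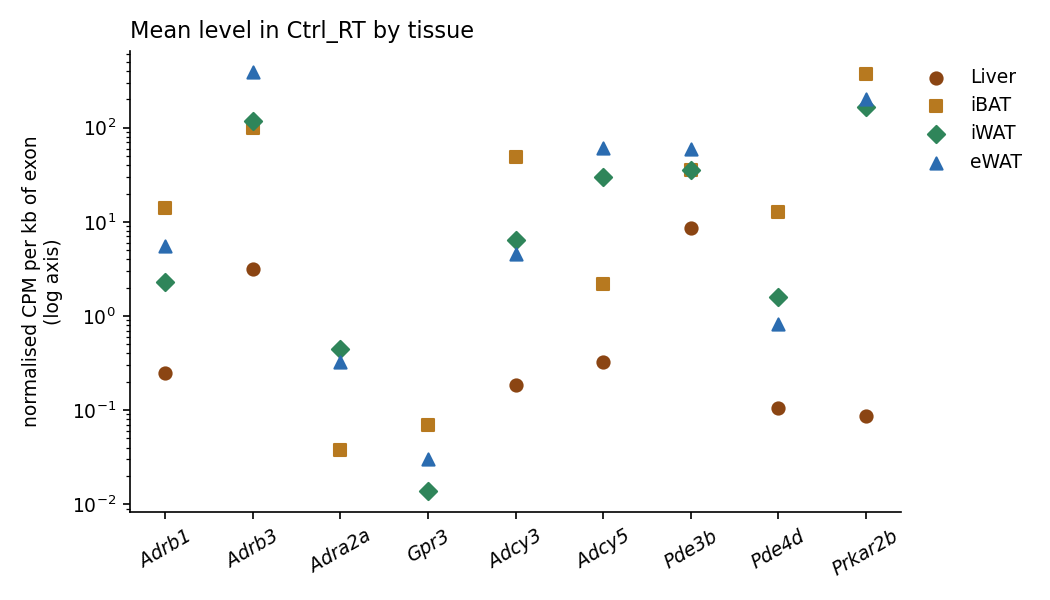
Mean normalised CPM per kb of exon of the 9 genes in Ctrl_RT (log axis; 1 point per tissue; values of 0 and Gpr3 in liver are not drawn). The Adcy3 and Pde4d points stood highest in iBAT, those of Adcy5 and Adrb3 in eWAT.

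Library totals ran from 6987895 to 33444374 counts in liver, 12672686 to 31232349 in iBAT, 16607493 to 33141066 in iWAT and 22021114 to 33372110 in eWAT. The tissues carried their own markers: 4 of 4 liver markers were present in liver (summed level 40590 to 81150 CPM) and 5 of 5 adipocyte markers in each depot (7819 to 11480 CPM in iBAT, 17410 to 27480 in iWAT and 19790 to 32290 in eWAT). Some iWAT and iBAT libraries also held skeletal muscle RNA (5 markers, up to 18860 and 1503 CPM) and some eWAT libraries epididymis RNA (5 markers, up to 1269 CPM). In bulk tissue, fewer cells of a type and less RNA per cell cannot be told apart.

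A gene was called where its adjusted p (edgeR, over all genes of the tissue) was below 0.05 and its change at least 1.5-fold. After cold on the control diet (Ctrl_CE against Ctrl_RT), 7 of the 9 genes were called in iWAT (5 higher, 2 lower; 15.9% of all genes tested), 3 in iBAT (2 higher, 1 lower; 14.7%), 3 in eWAT (all lower; 2.42%) and 4 of 8 tested in liver (3 higher, 1 lower; 11.9%). Methionine restriction at room temperature (MetR_RT against Ctrl_RT) gave 6 calls in iWAT (5 higher, 1 lower; 11.6% of all genes), 1 in iBAT (lower; 2.5%), 1 in eWAT (lower; 0.115%) and 1 in liver (higher; 6.91%). Both treatments together (MetR_CE against Ctrl_RT) gave 7 in iWAT (5 higher, 2 lower; 22.4%), 3 in iBAT (2 higher, 1 lower; 14.7%), 2 in eWAT (1 higher, 1 lower; 1.3%) and 3 in liver (2 higher, 1 lower; 13.5%). The median log2 fold change of the 9 genes in iWAT was 0.72 under cold, 0.67 under restriction and 0.99 under both, beside medians of -0.11, -0.03 and -0.08 over all genes. In iBAT the members' medians were 0.05, -0.23 and 0.03 (all genes -0.08, -0.04 and -0.10), and in eWAT -0.32, -0.19 and -0.05 (all genes -0.01, -0.02 and -0.03). In liver the 8 tested genes had medians of 0.78, 0.26 and 0.53. The 3 contrasts of a tissue share the same Ctrl_RT libraries, and their values are therefore given side by side.

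**Figure D2:**
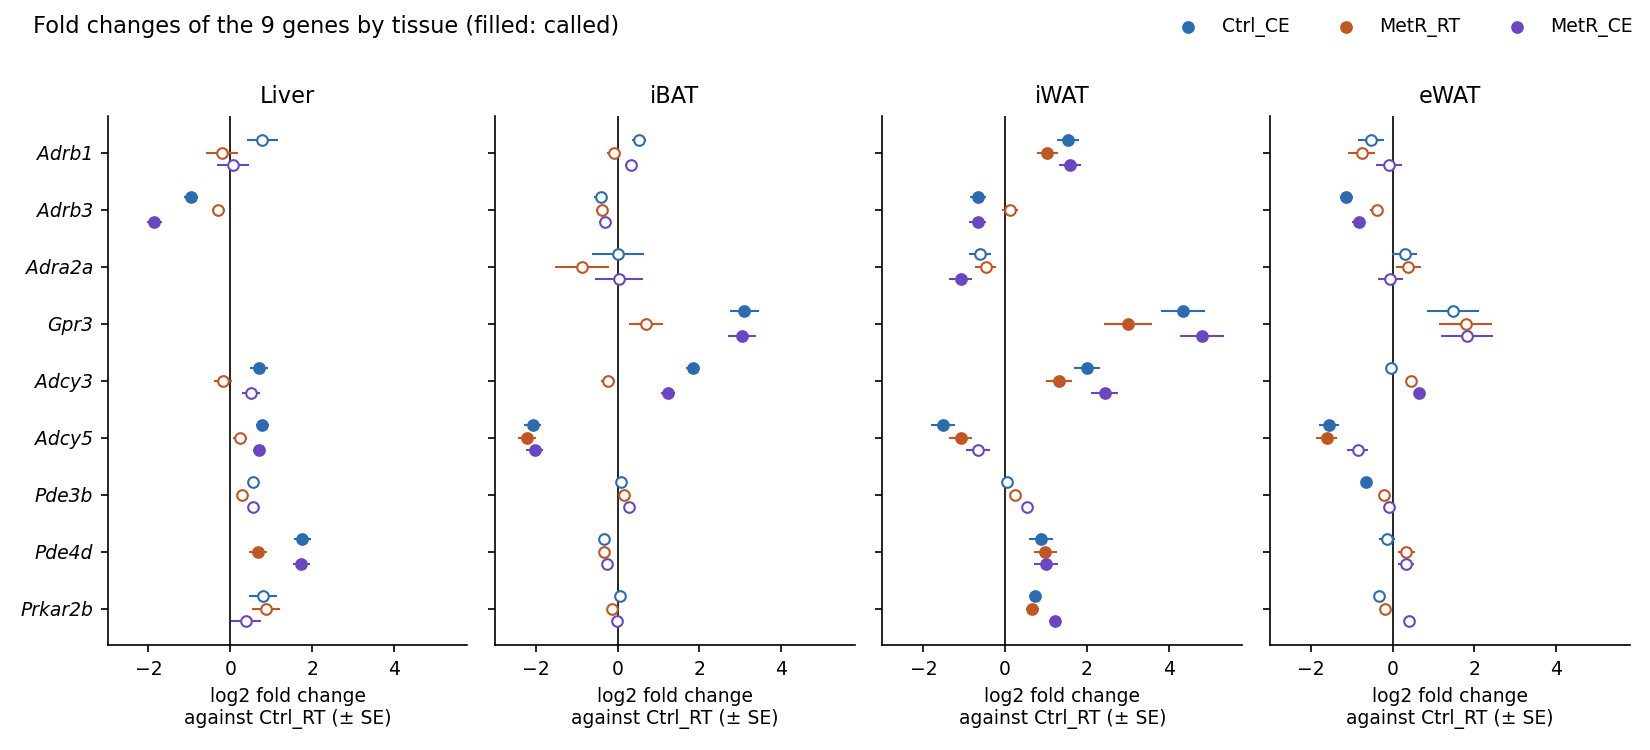
Log2 fold change against Ctrl_RT (x axis, ± SE) of the 9 genes in 4 tissues; colour gives the group, and filled points passed the test and the 1.5-fold limit. Filled points to the right stood mainly in iWAT (5 genes in each group), and Adcy5 stood to the left in all 3 fat depots.

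Adrb1 (GRCm38 chr19:56722199-56733113, plus strand) rose in iWAT under each treatment. The iWAT libraries held 5.98 to 12.7 CPM (median 6.78) in Ctrl_RT, 7.69 to 40.8 (median 20.3) in Ctrl_CE, 5.91 to 22 (median 16.9) in MetR_RT and 18.7 to 27.3 (median 24.3) in MetR_CE. The MetR_CE libraries lay above the whole Ctrl_RT group, while 1 Ctrl_CE library (replicate 7) and 1 MetR_RT library (replicate 5) stayed within or below it. The log2 fold changes were 1.54 ± 0.27, adjusted p = 9.65e-05 (cold), 1.03 ± 0.27, adjusted p = 0.00528 (restriction) and 1.59 ± 0.27, adjusted p = 4.14e-05 (both), each ± SE. These are 2.9-, 2.05- and 3.01-fold changes. Brown fat, where the level was highest, had 22.3 to 73.1 CPM (median 46.8) in Ctrl_RT, 49.7 to 83.7 (median 69.5) in Ctrl_CE, 38 to 53.7 (median 44.7) in MetR_RT and 52 to 72.2 (median 57.9) in MetR_CE. There the groups overlapped and the cold difference was 0.52 ± 0.16, adjusted p = 0.013, short of 1.5-fold. It was called without Ctrl_RT replicate 2 (0.69, adjusted p = 0.000674) or Ctrl_CE replicate 4 (0.60, adjusted p = 0.00498). The eWAT values were 28.3, 13.2, 17.9 and 14.9 CPM in Ctrl_RT, 5.6 to 26.7 (median 12.5) in Ctrl_CE, 8.02 to 14.1 (median 11.1) in MetR_RT and 8.77 to 27.2 (median 16.1) in MetR_CE. Overlap was present in every contrast, with log2 differences of -0.52 ± 0.32, adjusted p = 0.399 (cold), -0.76 ± 0.33, adjusted p = 0.46 (restriction) and -0.09 ± 0.32, adjusted p = 0.947 (both), none called. In liver it was at 0.84 ± 0.368 CPM in Ctrl_RT and 1.49 ± 0.99 in Ctrl_CE (mean ± SD), with no call.

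Adrb3 (chr8:27225776-27250616, minus strand) fell under cold in iWAT, eWAT and liver. In eWAT, where it was most abundant, the libraries held 1652, 1375, 1260 and 1029 CPM in Ctrl_RT, 498 to 892 (median 579) in Ctrl_CE, 863 to 1272 (median 1001) in MetR_RT and 601 to 929 (median 698) in MetR_CE. All 7 Ctrl_CE and all 7 MetR_CE libraries lay below the lowest of the 4 Ctrl_RT libraries, and the MetR_RT libraries overlapped them. Log2 fold changes were -1.13 ± 0.16, adjusted p = 0.000316 under cold, -0.83 ± 0.16, adjusted p = 0.00452 under both and -0.39 ± 0.16, adjusted p = 0.449 under restriction alone. With the 3 Ctrl_RT libraries left out here restored, the eWAT Ctrl_RT mean moved from 1329 to 1022 CPM. The cold difference was then -0.72 (adjusted p = 0.0404) and still called, and that of both treatments -0.41 (adjusted p = 0.202) and not called. In iWAT Adrb3 was at 217 to 637 CPM (median 382) in Ctrl_RT, 155 to 326 (median 254.8) in Ctrl_CE, 261.96 to 558 (median 410.2) in MetR_RT and 179.7 to 303 (median 265.2) in MetR_CE. These groups overlapped, and the differences of -0.66 ± 0.20, adjusted p = 0.0122 under cold and -0.67 ± 0.21, adjusted p = 0.0114 under both sat near the 1.5-fold limit. The first was lost without Ctrl_RT replicate 1 (-0.51) or Ctrl_CE replicate 7 (-0.57) and the second without Ctrl_RT replicate 1 (-0.53). Restriction alone gave 0.11 ± 0.20, adjusted p = 0.754 in this depot. Brown fat showed 224 to 429.8 CPM (median 319) in Ctrl_RT, 201 to 372 (median 228) in Ctrl_CE, 182 to 343 (median 247.2) in MetR_RT and 212 to 343 (median 262.97) in MetR_CE, with overlap throughout and -0.42 ± 0.16, adjusted p = 0.0369 under cold, short of 1.5-fold.

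Hepatic Adrb3 was low and still separated the groups. The liver libraries held 7.57 to 13.9 CPM (median 10.2) in Ctrl_RT, 3.94 to 6.46 (median 5.54) in Ctrl_CE, 5.88 to 11.8 (median 8.16) in MetR_RT and 2 to 4.47 (median 2.83) in MetR_CE, on counts of 29 to 260. Each Ctrl_CE and MetR_CE library lay below the Ctrl_RT group, and the log2 fold changes were -0.96 ± 0.16, adjusted p = 4.73e-05 under cold and -1.86 ± 0.18, adjusted p = 2.26e-09 under both, against -0.29 ± 0.16, adjusted p = 0.228 for restriction at room temperature. Adrb3 shares 839 exonic bases with the antisense gene Gm45470, whose eWAT mean was 165 CPM in Ctrl_RT and 91.5 in Ctrl_CE, and whose liver mean was 5.70 CPM in Ctrl_RT and 2.98 in MetR_CE. Whether the counting used strand is not given in the sources used here, so reads of the pair cannot be told apart.

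**Figure D3:**
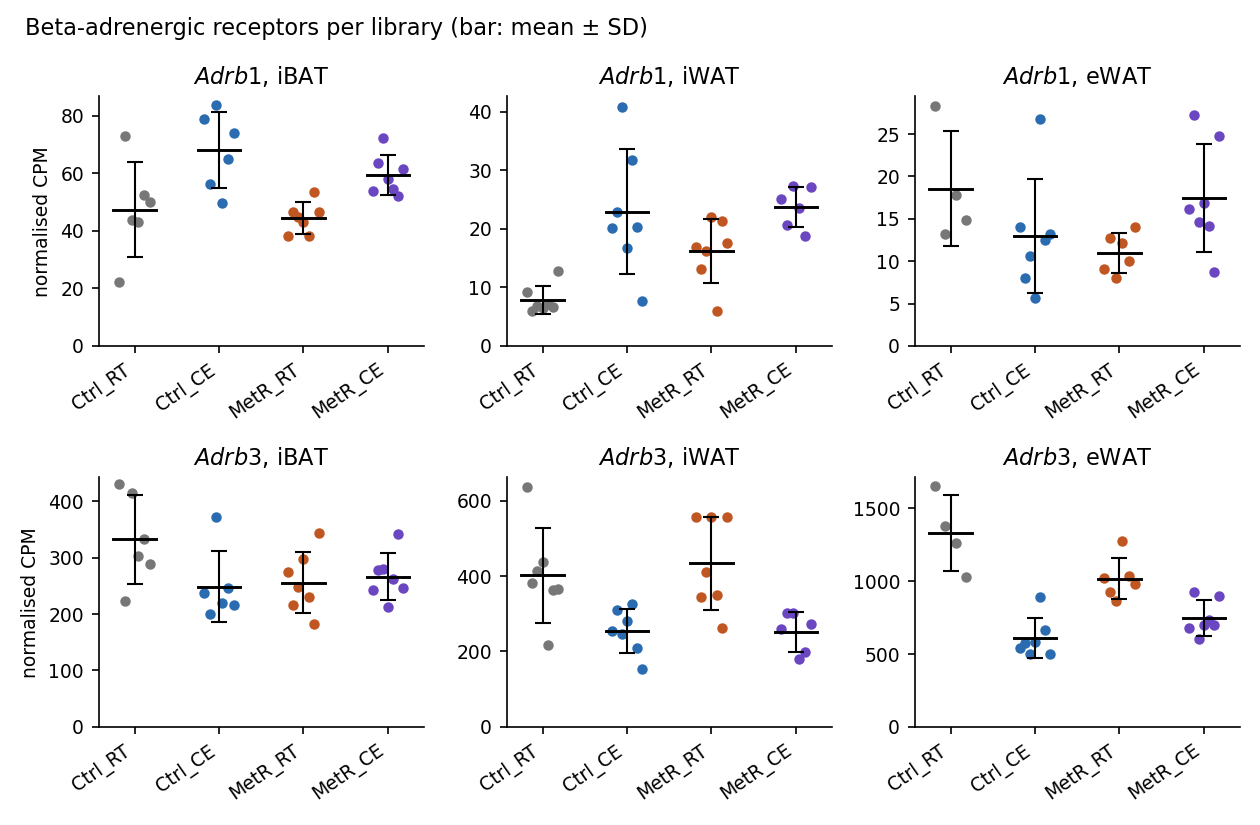
Normalised CPM (y axis, from 0) of Adrb1 and Adrb3 per library in 3 fat depots by group, with mean ± SD. In iWAT the MetR_CE libraries of Adrb1 (18.7 to 27.3 CPM) stood above all Ctrl_RT libraries, and in eWAT the Ctrl_CE libraries of Adrb3 (498 to 892 CPM) below all Ctrl_RT libraries.

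Adra2a (chr19:54044151-54048982, plus strand) was lower in iWAT when both treatments were combined. Its iWAT levels were 1.35 to 3.87 CPM (median 1.99) in Ctrl_RT, 0.838 to 2.27 (median 1.24) in Ctrl_CE, 0.803 to 2.11 (median 1.55) in MetR_RT and 0.421 to 1.31 (median 1.1) in MetR_CE, on counts of 9 to 88. All 6 MetR_CE libraries lay below the lowest Ctrl_RT library, with a log2 fold change of -1.09 ± 0.28, adjusted p = 0.00247, whereas cold alone gave -0.61 ± 0.26, adjusted p = 0.0775 and restriction alone -0.48 ± 0.26, adjusted p = 0.205. The cold difference was called without Ctrl_RT replicate 7 (-0.70, adjusted p = 0.0472) or Ctrl_CE replicate 7 (-0.77, adjusted p = 0.0252). Without the 9 iWAT libraries richest in muscle RNA the combined difference was -0.68 (adjusted p = 0.139) and no longer called. In eWAT the receptor was at 1.32, 3.24, 0.857 and 0.892 CPM in Ctrl_RT, 1.55 to 2.27 (median 1.96) in Ctrl_CE, 1.46 to 3 (median 1.98) in MetR_RT and 0.994 to 2.13 (median 1.36) in MetR_CE, with overlap and no call. Brown fat held 28 counts over the 6 Ctrl_RT libraries and 26 over the 6 Ctrl_CE libraries, a pooled ratio of 0.964 (exact 95% interval 0.543 to 1.71, counting error only). All 7 Ctrl_RT livers were at 0, and the other liver groups summed to 5 counts or fewer. Scaled to the library totals, the 5 counts of Ctrl_CE were 1.41 times a floor of 3 counts set for the Ctrl_RT group. This ratio takes the 5 counts as exact and does not show a rise. The edgeR difference under cold was not called (adjusted p = 0.078).

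Gpr3 (chr4:133209340-133212536, minus strand) had the largest proportional changes of the 9 genes, from very few counts. In iWAT it was at 0 to 0.104 CPM (median 0.028) in Ctrl_RT, 0.489 to 1.52 (median 0.782) in Ctrl_CE, 0.113 to 0.774 (median 0.251) in MetR_RT and 0.605 to 1.95 (median 1.08) in MetR_CE. The 7 Ctrl_RT libraries held 6 counts in all (0 to 2 each, 3 of them at 0), against 111 in Ctrl_CE, 51 in MetR_RT and 189 in the 6 MetR_CE libraries, and no treated library overlapped Ctrl_RT. The pooled ratios were 20.01 (exact 95% interval 8.91 to 55.7) under cold, 8.36 (3.59 to 23.8) under restriction and 29.7 (13.4 to 82.01) under both, counting error only. The edgeR log2 fold changes were 4.35 ± 0.55, adjusted p = 2.34e-06, 3.01 ± 0.59, adjusted p = 0.000507 and 4.81 ± 0.54, adjusted p = 2.47e-07 in the same order. Brown fat responded to cold and not detectably to the diet: its libraries held 0.0367 to 0.301 CPM (median 0.215) in Ctrl_RT, 1.11 to 2.13 (median 1.64) in Ctrl_CE, 0.107 to 0.544 (median 0.251) in MetR_RT and 0.667 to 2.83 (median 1.51) in MetR_CE. All Ctrl_CE and MetR_CE libraries stood above the Ctrl_RT group, at 3.10 ± 0.35, adjusted p = 3.77e-08 and 3.04 ± 0.35, adjusted p = 5.17e-08, whereas MetR_RT overlapped it at 0.70 ± 0.41, adjusted p = 0.352 and a pooled ratio of 1.54 (0.936 to 2.58). In eWAT the values were 0, 0, 0.2 and 0.127 CPM in Ctrl_RT, 0.0888 to 0.373 (median 0.249) in Ctrl_CE, 0.147 to 0.46 (median 0.269) in MetR_RT and 0.175 to 0.49 (median 0.293) in MetR_CE. Those groups overlapped, with 10 counts in Ctrl_RT and 41 to 63 in the others, and no difference was called (cold 1.47 ± 0.63, adjusted p = 0.196). The combined difference was 1.82 ± 0.63, adjusted p = 0.134, and was called without Ctrl_RT replicate 6 (2.86, adjusted p = 0.0399). With all libraries the eWAT Ctrl_RT mean moved from 0.0818 to 0.212 CPM. Liver held 5 Gpr3 counts over 28 libraries and was not tested. Gpr3 shares 204 exonic bases with Cd164l2 on the opposite strand, whose iWAT means were 3.15 CPM in Ctrl_RT, 4.31 CPM with cold, 5.24 CPM with restriction and 6.25 CPM with both, and the part of its reads in the Gpr3 counts was not tested.

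Adcy3 (chr12:4133103-4213525, plus strand), the more abundant of both cyclases in brown fat, rose with cold in iBAT and iWAT and with restriction in iWAT. The iBAT libraries held 219.6 to 472 CPM (median 283.2) in Ctrl_RT, 765 to 1460 (median 1068) in Ctrl_CE, 181 to 375 (median 267.6) in MetR_RT and 589 to 825 (median 695) in MetR_CE. All cold-exposed libraries lay above the Ctrl_RT group and the MetR_RT libraries overlapped it, with log2 fold changes of 1.84 ± 0.18, adjusted p = 2.43e-09 (cold), 1.24 ± 0.17, adjusted p = 1.26e-06 (both) and -0.23 ± 0.17, adjusted p = 0.468 (restriction). In iWAT it was at 30.2 to 54.2 CPM (median 38.5) in Ctrl_RT, 48.9 to 320.1 (median 133) in Ctrl_CE, 34.7 to 175 (median 71.9) in MetR_RT and 170.5 to 276.02 (median 199) in MetR_CE. All 6 MetR_CE libraries and 6 of 7 libraries in each of Ctrl_CE and MetR_RT exceeded the highest Ctrl_RT library. The exceptions, Ctrl_CE replicate 7 and MetR_RT replicate 5, were the same libraries as for Adrb1. The iWAT differences were 2.00 ± 0.33, adjusted p = 4.73e-05, 1.31 ± 0.32, adjusted p = 0.00361 and 2.43 ± 0.34, adjusted p = 2.9e-06 for cold, restriction and both. The eWAT values were 34, 29, 22.3 and 29.4 CPM in Ctrl_RT, 25 to 34.2 (median 28) in Ctrl_CE, 30.9 to 51.3 (median 38.7) in MetR_RT and 40.8 to 57 (median 43.8) in MetR_CE. Here the Ctrl_CE group overlapped Ctrl_RT at -0.03 ± 0.12, adjusted p = 0.959, while all 7 MetR_CE libraries stood above it at 0.66 ± 0.12, adjusted p = 0.0042. The last was short of 1.5-fold without Ctrl_RT replicate 6 (0.55) and without the 5 libraries richest in epididymis RNA (0.55). Liver Adcy3 was near 1 CPM and higher under cold at 0.70 ± 0.21, adjusted p = 0.0126, with overlap. Adcy3 shares 1380 exonic bases with Cenpo on the opposite strand, which was at 5.47 CPM in Ctrl_RT and 4.79 in Ctrl_CE in iBAT (means).

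**Figure D4:**
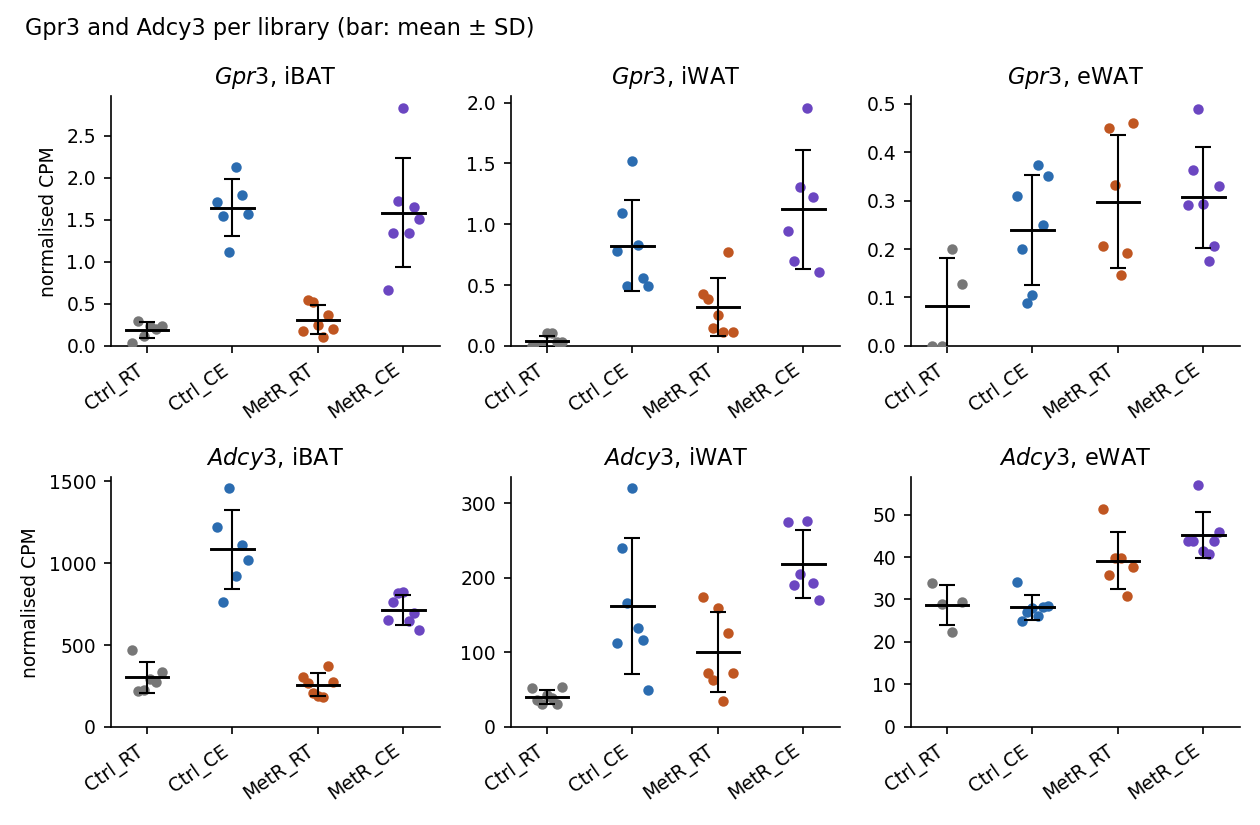
Normalised CPM (y axes from 0, each panel its own scale) of Gpr3 and Adcy3 per library in 3 fat depots by group, with mean ± SD. In iBAT the Ctrl_CE and MetR_CE libraries stood above Ctrl_RT for both genes and MetR_RT overlapped it, whereas in iWAT the MetR_RT libraries of Gpr3 (0.113 to 0.774 CPM) also stood above Ctrl_RT.

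Adcy5 (chr16:35154877-35305738, plus strand), a cyclase isoform inhibited by Gi and by calcium, fell in all 3 fat depots. In iBAT its libraries held 10.01 to 19.5 CPM (median 15.9) in Ctrl_RT, 2.88 to 4.44 (median 3.82) in Ctrl_CE, 2.68 to 4.65 (median 3.17) in MetR_RT and 1.83 to 6.6 (median 2.95) in MetR_CE. No treated library reached the lowest Ctrl_RT value, and the log2 fold changes were -2.08 ± 0.22, adjusted p = 9.26e-09 (cold), -2.22 ± 0.21, adjusted p = 1.83e-07 (restriction) and -2.03 ± 0.21, adjusted p = 7.16e-09 (both). The fitted levels were thus 0.236, 0.215 and 0.245 of that in Ctrl_RT. The iWAT libraries held 84.9 to 334 CPM (median 219) in Ctrl_RT, 54.6 to 106 (median 77.4) in Ctrl_CE, 45.4 to 196 (median 79.2) in MetR_RT and 105 to 171 (median 134) in MetR_CE. These overlapped, with -1.51 ± 0.29, adjusted p = 0.000242 under cold, -1.08 ± 0.28, adjusted p = 0.00615 under restriction and -0.67 ± 0.30, adjusted p = 0.0761 under both, the last not called except without Ctrl_RT replicate 5 (-0.81, adjusted p = 0.0227). In eWAT, where Adcy5 was most abundant, the values were 495, 332, 337 and 604 CPM in Ctrl_RT, 106 to 279.1 (median 121) in Ctrl_CE, 94.4 to 233 (median 133) in MetR_RT and 181 to 301 (median 244.6) in MetR_CE. All treated libraries lay below the 4 Ctrl_RT libraries, at -1.55 ± 0.25, adjusted p = 0.00101 under cold, -1.61 ± 0.26, adjusted p = 0.00548 under restriction and -0.85 ± 0.25, adjusted p = 0.0686 under both. The last was called without Ctrl_CE replicate 3 (-0.85, adjusted p = 0.0247) or MetR_RT replicate 1 (-0.85, adjusted p = 0.0447). With the left-out eWAT libraries the Ctrl_RT mean was 352 CPM, the cold call held at -1.19 (adjusted p = 0.0204) and the restriction call was lost at -1.32 (adjusted p = 0.0792). Liver went the other way, at 1.74 to 3.49 CPM (median 2.11) in Ctrl_RT, 2.88 to 4.65 (median 3.97) in Ctrl_CE, 2 to 3.65 (median 2.78) in MetR_RT and 2.93 to 4.39 (median 3.84) in MetR_CE, with 0.78 ± 0.16, adjusted p = 0.000281 under cold and 0.70 ± 0.16, adjusted p = 0.000836 under both, and with overlap of the groups.

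**Figure D5:**
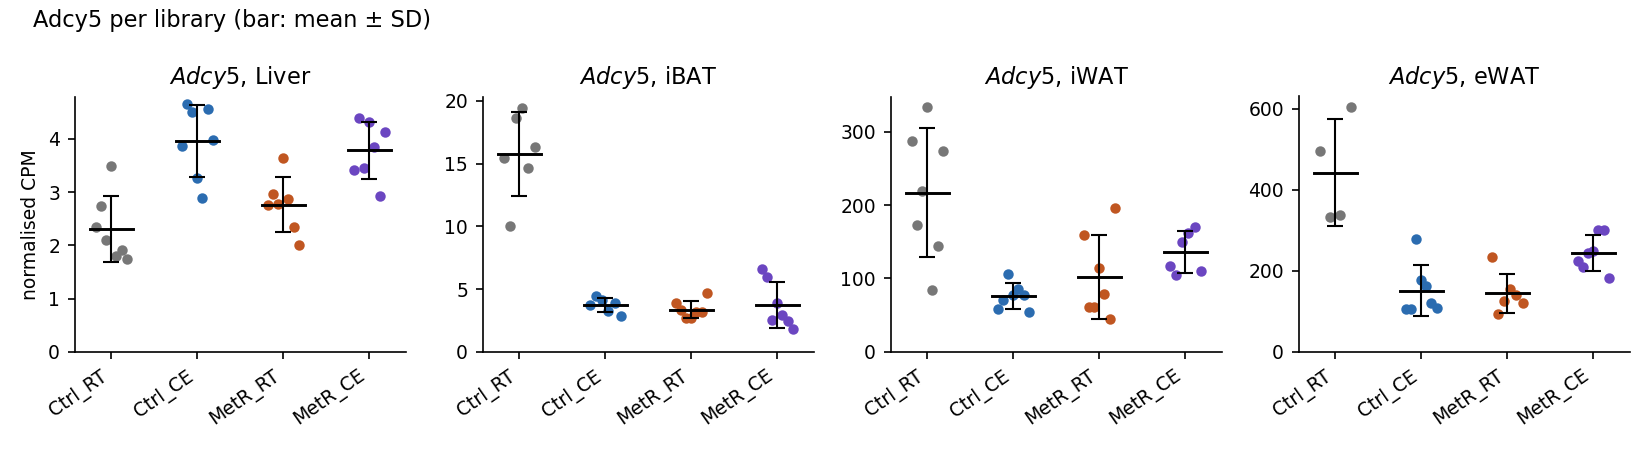
Normalised CPM (y axes from 0, each panel its own scale) of Adcy5 per library in 4 tissues by group, with mean ± SD. In iBAT and eWAT every treated library stood below Ctrl_RT, and in liver the cold-exposed groups stood at 2.88 to 4.65 CPM against 1.74 to 3.49 in Ctrl_RT.

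Pde3b (chr7:114415281-114539251, plus strand), which lowers cAMP in response to insulin, was called against Ctrl_RT in eWAT under cold and in no other contrast. In eWAT its libraries held 601, 493, 462 and 587 CPM in Ctrl_RT, at most 417 (median 355; the lowest, replicate 3, on 5944 counts) in Ctrl_CE, 397 to 504 (median 474) in MetR_RT and 448 to 538 (median 499) in MetR_CE. All Ctrl_CE libraries lay below Ctrl_RT and the other groups overlapped it, with -0.64 ± 0.11, adjusted p = 0.00144 under cold, -0.21 ± 0.11, adjusted p = 0.5676 under restriction and -0.09 ± 0.11, adjusted p = 0.789 under both. That cold call dropped under 1.5-fold without Ctrl_RT replicate 1 (-0.58) or Ctrl_CE replicate 3 (-0.57), and with all libraries it was -0.33 (adjusted p = 0.126). Liver Pde3b was at 67.7 to 91.1 CPM (median 79.99) in Ctrl_RT, 105 to 121 (median 115) in Ctrl_CE, 80.4 to 108 (median 97.7) in MetR_RT and 104 to 127 (median 113) in MetR_CE. The cold-exposed groups did not overlap Ctrl_RT there, and the differences of 0.55 ± 0.07, adjusted p = 4.46e-07 under cold and 0.55 ± 0.07, adjusted p = 2.18e-07 under both passed the test and stayed under 1.5-fold. The iWAT libraries held 253.03 to 407 CPM (median 332) in Ctrl_RT, 223 to 431 (median 339) in Ctrl_CE, 313 to 462 (median 384) in MetR_RT and 431 to 519 (median 461) in MetR_CE, with no overlap of MetR_CE and Ctrl_RT and 0.53 ± 0.12, adjusted p = 0.00117, again under 1.5-fold (called without Ctrl_RT replicate 7, at 0.59), and 0.05 ± 0.12, adjusted p = 0.808 under cold alone. In iBAT the difference under both was 0.29 ± 0.08, adjusted p = 0.00402, with overlap.

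Pde4d (chr13:108449948-109953461, plus strand), a cAMP-specific phosphodiesterase that PKA itself activates, rose in liver and iWAT. The liver libraries held 0.55 to 1.94 CPM (median 1.24) in Ctrl_RT, 2.93 to 5.31 (median 4.34) in Ctrl_CE, 1.45 to 2.61 (median 2.09) in MetR_RT and 2.38 to 6.12 (median 4.45) in MetR_CE, on counts of 7 to 96. All cold-exposed livers exceeded the Ctrl_RT group, at 1.76 ± 0.21, adjusted p = 3.4e-07 and 1.74 ± 0.21, adjusted p = 2e-07, and MetR_RT overlapped it at 0.67 ± 0.22, adjusted p = 0.0329. Beside this, the 3 endothelium markers summed to 26.3 to 35.9 CPM in Ctrl_RT livers, 45.3 to 91.6 in Ctrl_CE, 33.6 to 42.6 in MetR_RT and 53.1 to 65.8 in MetR_CE. The 4 macrophage markers had liver medians of 104, 223, 83.4 and 134 CPM in the same groups and the 3 fibroblast markers 104, 152, 119 and 119. Their part in the liver changes of Pde4d, Adcy3 and Adcy5 was not tested. In iWAT Pde4d was at 15.5 to 26.9 CPM (median 18.1) in Ctrl_RT, 14.6 to 89.2 (median 24.3) in Ctrl_CE, 20.8 to 58.4 (median 39.9) in MetR_RT and 28.6 to 47.2 (median 39.6) in MetR_CE. All MetR_CE libraries lay above Ctrl_RT at 0.99 ± 0.29, adjusted p = 0.0084, and MetR_RT partly so at 0.98 ± 0.28, adjusted p = 0.0125. The cold call of 0.88 ± 0.28, adjusted p = 0.0196 rested on replicate 4 of Ctrl_CE at 89.2 CPM, and without it was 0.46 (adjusted p = 0.117). Brown fat, where Pde4d was most abundant, held 129 to 172 CPM (median 155) in Ctrl_RT, 97.8 to 187 (median 111) in Ctrl_CE, 91.8 to 138 (median 123) in MetR_RT and 95.7 to 149 (median 121) in MetR_CE, with overlap and -0.32 ± 0.13, adjusted p = 0.0529 under cold. The eWAT means were 9.81 ± 2.78 CPM in Ctrl_RT and 8.88 ± 2.85 in Ctrl_CE (± SD), with no call.

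Prkar2b (chr12:31958476-32061296, minus strand) rose in iWAT with each treatment and was called in no contrast of brown fat. The iWAT libraries held 465 to 845 CPM (median 598) in Ctrl_RT, 639.5 to 1251 (median 961) in Ctrl_CE, 612 to 1329 (median 984) in MetR_RT and 1294 to 1574 (median 1374) in MetR_CE. All 6 MetR_CE libraries stood above Ctrl_RT, as did 6 of 7 Ctrl_CE and 4 of 7 MetR_RT libraries, and the differences were 0.72 ± 0.15, adjusted p = 0.000569 under cold, 0.67 ± 0.15, adjusted p = 0.00176 under restriction and 1.22 ± 0.16, adjusted p = 1.03e-06 under both. The restriction call fell to 0.57 without MetR_RT replicate 1. In iBAT Prkar2b was at 1160 to 1609 CPM (median 1399) in Ctrl_RT, 1174 to 1669 (median 1441) in Ctrl_CE, 1087 to 1462 (median 1220) in MetR_RT and 1222 to 1496 (median 1374) in MetR_CE, with overlap and 0.05 ± 0.08, adjusted p = 0.723 under cold. The eWAT values were 809, 609, 545 and 990.3 CPM in Ctrl_RT, 533 to 642 (median 586) in Ctrl_CE, 619 to 685 (median 650.5) in MetR_RT and 821 to 1145 (median 932) in MetR_CE. Each treated eWAT group overlapped Ctrl_RT, and the difference under both was 0.40 ± 0.13, adjusted p = 0.108, which with all libraries was 0.71 (adjusted p = 0.0129) and called. Liver held under 1 CPM in every library.

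Whether diet and cold added up was tested by the interaction, the log2 effect of cold on the restricted diet minus that on the control diet. It was called for 1 of the 9 genes in iBAT (0.372% of all genes), 2 in iWAT (1.65%), 3 in eWAT (2.3%) and 0 of 8 in liver (1.06%). In liver, where edgeR and DESeq2 both called 0, the unadjusted edgeR p was below 0.05 for 4 of the 8 genes (Adrb3, Pde3b, Pde4d and Prkar2b), beside 3562 of all 22143 genes at that limit. Their adjusted p were 0.198, 0.126, 0.23 and 0.174. For Adcy5 it was 2.27 ± 0.30, adjusted p = 0.000435 in iBAT, 1.92 ± 0.41, adjusted p = 0.0146 in iWAT and 2.31 ± 0.34, adjusted p = 0.00309 in eWAT, where each treatment alone lowered the gene and the mean under both was not below that of either alone. The iBAT call was lost when libraries were grouped by the treatment tag (1.73, adjusted p = 0.124), a grouping at odds with the labels of the same mice's other tissues. The iWAT call was lost without the muscle-rich libraries (2.16, adjusted p = 0.113) and the eWAT call with all libraries (2.03, adjusted p = 0.0733). Over all genes, the interaction calls under these settings went from 89 to 1 in iBAT, 435 to 7 in iWAT and 640 to 1 in eWAT. For Gpr3 in iWAT the interaction was -2.55 ± 0.71, adjusted p = 0.0459, on 6 counts in Ctrl_RT. The call was lost in 21 of 27 fits that left out a library, all but those without Ctrl_RT replicates 4 or 5, Ctrl_CE replicate 7, MetR_RT replicates 5 or 7 or MetR_CE replicate 1, with values from -2.92 to -2.23. In eWAT it was 0.76 ± 0.14, adjusted p = 0.00855 for Pde3b and 0.91 ± 0.17, adjusted p = 0.00855 for Prkar2b. With all eWAT libraries the 3 calls of that depot were lost, at 2.03 (adjusted p = 0.0733) for Adcy5, 0.54 (adjusted p = 0.299) for Pde3b and 0.69 (adjusted p = 0.195) for Prkar2b. Further interactions were called when a library was left out, namely Adrb1 in iWAT without Ctrl_CE replicate 7 (-1.13, adjusted p = 0.0388) and in eWAT without Ctrl_CE replicate 5 (1.45, adjusted p = 0.038). The same held in eWAT for Adrb3 without Ctrl_CE replicate 5 (0.78, adjusted p = 0.0267) or MetR_RT replicate 4 (0.75, adjusted p = 0.0486) and for Adra2a without Ctrl_RT replicate 3 (-1.37, adjusted p = 0.0302). Adrb3 in eWAT was also called with the replicate number as a block, at 0.81.

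Restriction during cold (MetR_CE against Ctrl_CE), a comparison without Ctrl_RT, gave 3 calls in eWAT (4.35% of all genes), 1 in iBAT (1.64%), 0 in iWAT (2.27%) and 1 in liver (5.26%). In eWAT Adcy3 and Prkar2b were higher without overlap, at 0.68 ± 0.10, adjusted p = 0.000213 and 0.72 ± 0.11, adjusted p = 0.000264. Pde3b did not overlap there either, at 0.55 ± 0.09, adjusted p = 0.000625, and stayed under 1.5-fold. The eWAT difference of Adcy5, 0.69 ± 0.22, adjusted p = 0.041, was lost in 9 of 24 fits that left out a library (Ctrl_CE replicates 1, 2, 5, 6 or 7, MetR_CE replicates 3 to 6), over all of which it ran from 0.62 to 0.90. Also in eWAT, Pde3b was called without Ctrl_CE replicate 1 (0.59) or 4 (0.59), and Pde4d without Ctrl_CE replicate 4 (0.64, adjusted p = 0.00558). In iBAT Adcy3 was lower on the restricted diet at -0.61 ± 0.17, adjusted p = 0.0304, a call lost without any 1 of Ctrl_CE replicates 1, 3 or 6 or MetR_CE replicates 1, 5, 6 or 7 (range -0.69 to -0.50). Liver Adrb3 was lower at -0.90 ± 0.18, adjusted p = 0.000945, with 6 of 7 MetR_CE libraries below the Ctrl_CE group. In iWAT edgeR and DESeq2 both called 0 of the 9, and the unadjusted edgeR p was below 0.05 for 3 (Adcy5, Pde3b and Prkar2b), beside 5000 of all 26428 genes. Of these Pde3b and Prkar2b were higher without overlap, at 0.48 ± 0.12, adjusted p = 0.0316 and 0.50 ± 0.16, adjusted p = 0.0699, both under 1.5-fold.

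The change of a gene was also compared between depots. Between iWAT and iBAT, 3 of the 9 genes differed in their cold response (10.5% of all genes), 6 in their response to restriction (4.65%) and 5 in that to both (12.7%). Between iWAT and eWAT these numbers were 5 (3.14%), 2 (2.43%) and 5 (10.7%). All 26 called differences had the higher log2 change in iWAT. For restriction against iBAT they were 2.30 ± 0.73, adjusted p = 0.0376 for Gpr3, 1.56 ± 0.38, adjusted p = 0.00544 for Adcy3 and 1.14 ± 0.32, adjusted p = 0.0177 for Adrb1. Those of Pde4d, Prkar2b and Adcy5 were 1.34 ± 0.32, adjusted p = 0.00492, 0.82 ± 0.18, adjusted p = 0.00181 and 1.14 ± 0.38, adjusted p = 0.0465, the last from a smaller fall in iWAT. For cold against eWAT, Adrb1 differed by 2.08 ± 0.41, adjusted p = 0.00349, Adcy3 by 2.05 ± 0.38, adjusted p = 0.00212 and Prkar2b by 1.06 ± 0.20, adjusted p = 0.00245. The depots of a mouse are not independent, and with the mouse as a block (limma) 3 instead of 6 genes differed under restriction against iBAT. The calls lost there were those of Gpr3 (1.98, adjusted p = 0.0592), Adrb1 (0.99, adjusted p = 0.0558) and Adcy5 (1.06, adjusted p = 0.212). The block also ended the calls of Adrb1 under cold against iBAT (0.79, adjusted p = 0.0961) and of Gpr3 under cold against eWAT (2.07, adjusted p = 0.0945). Adrb1 was thus called in all 6 comparisons without the block and in 4 with it. Gpr3 under both against iBAT (1.63, adjusted p = 0.0378) and Adra2a under both against eWAT (-1.13, adjusted p = 0.0376) were called only with it.

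Cell type markers moved with the iWAT groups. The 5 brown adipocyte markers summed to 49.9 to 755 CPM in Ctrl_RT, 692 to 5331 in Ctrl_CE, 363 to 4621 in MetR_RT and 2819 to 6739 in MetR_CE. The 3 fibroblast markers summed to 3171 to 10570 CPM in Ctrl_RT and to medians of 1717, 1114 and 808 CPM in Ctrl_CE, MetR_RT and MetR_CE, and the 4 macrophage markers to a median of 648 CPM in Ctrl_RT and 287.7, 212 and 133 in the others. In iBAT the brown markers were at 8184 to 10820 CPM in Ctrl_RT and 13970 to 16280 in Ctrl_CE, and in eWAT at 8.57 to 28.4 CPM over all groups. The eWAT adipocyte markers were at 24460 to 32290 CPM in Ctrl_RT and 19790 to 27860 in Ctrl_CE. The part of these cells in the changes of the 9 genes was not tested. Without the 9 iWAT libraries above 1000 CPM of muscle markers (2 of Ctrl_RT, 1 of Ctrl_CE, 3 of MetR_RT and 3 of MetR_CE), 6 of the 9 genes were called under cold, 2 under restriction (Adrb1 at 1.01, adjusted p = 0.0468, and Gpr3 at 2.28, adjusted p = 0.0433) and 6 under both. Of all 24641 genes tested in that setting, 3158, 1663 and 4677 were called in the same order. The main fit called 4211, 3067 and 5932 of 26428. The restriction changes then not called were 1.07 for Adcy3 (adjusted p = 0.084), -1.15 for Adcy5 (0.052), 0.92 for Pde4d (0.13) and 0.58 for Prkar2b (0.0426, just under 1.5-fold).

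Around the 9 genes, 89 further genes of the pathway were taken in 11 lists, of which 87 were tested in fat and 82 in liver. Under cold 12 rose and 12 fell in iWAT, 12 and 17 in iBAT, 3 and 5 in eWAT, and 22 and 1 in liver, with median log2 changes of 0.08, 0.02, -0.07 and 0.38 beside -0.11, -0.08, -0.01 and -0.01 over all genes. The share of all genes called under cold was 15.9%, 14.7%, 2.42% and 11.9% in the same order. Under restriction 13 rose and 8 fell in iWAT, 1 and 9 in iBAT, 0 and 2 in eWAT, and 4 and 1 in liver, beside 11.6%, 2.5%, 0.115% and 6.91% of all genes. With both, 25 rose and 13 fell in iWAT, 10 and 19 in iBAT, 0 and 3 in eWAT, and 16 and 5 in liver, beside 22.4%, 14.7%, 1.3% and 13.5% of all genes.

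Among receptors coupled to Gi, Hcar1 and Hcar2, which bind lactate and hydroxybutyrate and restrain lipolysis, fell in all 3 depots. Under cold the changes of Hcar1 were -2.38 ± 0.20, adjusted p = 1.15e-10 in iBAT, -1.49 ± 0.22, adjusted p = 1.78e-05 in iWAT and -1.73 ± 0.23, adjusted p = 0.000284 in eWAT. Under restriction they were -1.38 ± 0.18, adjusted p = 1.73e-05, -0.67 ± 0.22, adjusted p = 0.0268 and -1.47 ± 0.24, adjusted p = 0.00705. Its interaction, like that of Adcy5, was positive, at 1.26 ± 0.26, adjusted p = 0.0168 in iBAT, 1.32 ± 0.32, adjusted p = 0.0243 in iWAT and 2.21 ± 0.32, adjusted p = 0.00309 in eWAT. Hcar2 under cold was at -2.50 ± 0.25, adjusted p = 4.09e-09, -1.26 ± 0.24, adjusted p = 0.000253 and -1.18 ± 0.19, adjusted p = 0.00105 in the same depots. The list of Gi-coupled receptors had 6 of 7 genes lower in iBAT under cold, 3 in iWAT and 2 in eWAT, with none higher, beside 14.7%, 15.9% and 2.42% of all genes called. Under restriction the numbers lower were 3, 2 and 2 in the same order, beside 2.5%, 11.6% and 0.115% called, while Adora1, the adenosine A1 receptor, was higher in iWAT at 0.63 ± 0.10, adjusted p = 8e-05. Under both they were 7, 2 and 2, beside 14.7%, 22.4% and 1.3%, while Adora1 (0.76 ± 0.10, adjusted p = 1.78e-06) and the succinate receptor Sucnr1 (0.88 ± 0.23, adjusted p = 0.00286) were higher in iWAT.

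Further down the pathway, in iWAT Prkaca, the main catalytic subunit of PKA, was higher at 0.90 ± 0.12, adjusted p = 4.31e-06 under cold and 0.81 ± 0.12, adjusted p = 5.22e-05 under restriction. Of the G protein α subunits, Gnal, of the Gs family, was lower at -2.50 ± 0.33, adjusted p = 4.25e-06 and Gnao1, of the Gi/o family, higher at 1.58 ± 0.26, adjusted p = 4.71e-05 under cold in iWAT. Gnas, also of the Gs family, had an iWAT mean of 1314 CPM, against 8.19 for Gnal and 43.2 for Gnao1. It was higher in iWAT at 0.73 ± 0.15, adjusted p = 0.000769 under restriction and 0.85 ± 0.15, adjusted p = 7.6e-05 under both. In iBAT the other PKA regulatory subunits Prkar1a and Prkar2a were higher at 0.75 ± 0.06, adjusted p = 3.13e-10 and 0.84 ± 0.08, adjusted p = 2.82e-09. Phosphodiesterases Pde1c and Pde7b were higher in iBAT at 2.91 ± 0.27, adjusted p = 9.08e-10 and 2.05 ± 0.21, adjusted p = 6.1e-09, and Pde1c in iWAT at 2.91 ± 0.47, adjusted p = 4.53e-05 under cold and 2.45 ± 0.47, adjusted p = 0.000452 under restriction. Arrb1, a β-arrestin that uncouples and internalises receptors, fell in iBAT at -0.95 ± 0.10, adjusted p = 4.28e-09 and rose in liver at 1.08 ± 0.11, adjusted p = 2.58e-08.

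Of 8 genes that respond to cAMP in brown fat, 4 rose and 1 fell with cold in iBAT and 5 rose and 1 fell in iWAT, where 3 rose with restriction. The shares of all genes called were 14.7% in iBAT and 15.9% in iWAT under cold and 11.6% in iWAT under restriction. Ppargc1a, a coactivator of mitochondrial genes, was higher by 2.44 ± 0.21, adjusted p = 2.9e-10 in iBAT and 2.71 ± 0.32, adjusted p = 1.13e-06 in iWAT under cold, and by 1.21 ± 0.31, adjusted p = 0.00508 in iWAT under restriction. Dio2, which makes active thyroid hormone, was higher by 1.93 ± 0.25, adjusted p = 5.33e-07 in iBAT, 4.93 ± 0.56, adjusted p = 6.54e-07 in iWAT and 3.08 ± 0.62, adjusted p = 0.00534 in eWAT under cold. Pck1, of the same list, was lower in eWAT under cold at -1.55 ± 0.30, adjusted p = 0.00467. The eWAT means were 3105 CPM for Pck1 and 2.03 for Dio2. Under restriction Dio2 was higher by 2.31 ± 0.51, adjusted p = 0.00161 in iWAT and lower at -0.98 ± 0.24, adjusted p = 0.012 in iBAT. Nr4a3, also of this list, was lower in iBAT under restriction at -1.85 ± 0.41, adjusted p = 0.0046. Fos, an early response gene, was lower in iBAT under cold at -2.12 ± 0.60, adjusted p = 0.00616. In liver the calls under cold included Akap12, a PKA anchoring protein (1.69 ± 0.28, adjusted p = 3.12e-05), the cyclase Adcy4 (0.76 ± 0.13, adjusted p = 4.69e-05), Pde4b (1.03 ± 0.21, adjusted p = 0.000275) and Ppargc1a (1.13 ± 0.20, adjusted p = 5.52e-05), while restriction raised Adora1 at 1.76 ± 0.18, adjusted p = 3.27e-08.

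The patterns most like those of the 9 genes were sought over the 12 group means of the fat depots, as Pearson r of mean log2 CPM among 12159 genes, and describe these 12 points without a test. Adcy3 was nearest to Pgpep1 (r = 0.989), Gpr3 to Rab21 (0.975) and Csnk2a1 (0.971), and Adrb1 to Tmem186 (0.994) and Epb41 (0.988). Adcy5 was nearest to Nfatc2ip and Gm44509 (both 0.991), Adrb3 to Serf2 (0.976) and Nicn1 (0.975), and Adra2a to Rpl13 (0.995) and Nbl1 (0.994). Pde4d was nearest to Ppara (0.994) and Acss1 (0.992), Prkar2b to Ndrg2 (0.963) and Hsdl2 (0.944), and Pde3b to Crbn (0.91) and Gabarapl1 (0.904). The points share mice across depots and libraries within a depot. The means were not centred within a depot, so differences in level between depots enter r beside changes with treatment. The genes named are those of highest r among all 12159.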

How the data were processed

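The authors aligned reads to mm10 with STAR 2.7.9a and quantified genes with featureCounts 2.0.3 and, in parallel, with Salmon 1.9.0. They deposited whole-number raw counts per gene whose table names point to Salmon, so that the values may be rounded estimates, and which of the tools made them could not be settled from the values. The processing notes also name MultiQC 1.19 and DESeq2 1.46.0. Whether the counting used strand is not given in the sources used here. Libraries were grouped by their titles, since the treatment tag of 3 iBAT libraries disagreed with the title. For the 3 mice concerned, title and tag of the liver, iWAT and eWAT libraries all give the group of the iBAT title. The study left out 5 libraries and gives their number per group, not their identity. They were inferred as the set whose normalised gene means came closest to the authors' mean column, namely iBAT Ctrl_CE replicate 5, eWAT Ctrl_RT replicates 2, 4 and 5 and eWAT MetR_RT replicate 7 (median deviation 0.151% in eWAT, against 0.775% for the next of 246 sets, and 0.251% in iBAT, against 1.15% for the next of 8). These were left out here and restored in an alternative. Per tissue, genes with at least 10 counts in all were fitted with edgeR 4.0.16 (TMM, quasi-likelihood, diet by temperature) in R 4.3.3, and p-values were adjusted by Benjamini-Hochberg over all genes tested. The SE is the log2 fold change divided by the square root of F. Differences between depots were fitted in 1 model per depot pair, with limma 3.58.1 and the mouse as a block as an alternative. DESeq2 1.42.0, other scaling, filters, the replicate block and leaving out each fat library were further alternatives. The 28 mice are separate animals. Promoters came from RefSeq and gene coordinates and exon lengths from the GENCODE M21 annotation (GRCm38), to which 51948 of the 56884 gene IDs matched without their version and 35 with it. All 9 genes were named in every tissue. Of each pathway list, up to 3 called genes per contrast with the highest absolute log2 change and a mean of at least 1 CPM could be named, and for each member the 2 genes of highest Pearson r. Some genes that these rules name are not reported here. The 9 genes and the lists were chosen with earlier results of these data known.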

Additional observations from a re-analysis of the deposited data

Results flagged for a closer look

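In 11 of 139 groups of 4 to 10 libraries, 1 library stood apart from the others by Dixon's criterion, which chance alone meets in about 1 group in 20. In iBAT these were Ctrl_CE replicate 3 for Adrb3 (371.9 CPM) and Ctrl_CE replicate 4 for Pde4d (186.9). In iWAT they were Ctrl_RT replicate 2 for Adra2a (3.868) and Ctrl_CE replicate 4 for Pde4d (89.21). In eWAT Ctrl_CE they were replicate 5 for Adrb1 (26.74) and Adrb3 (892.5), replicate 1 for Adcy3 (34.22) and replicate 3 for Adcy5 (279.1), and in eWAT MetR_CE replicate 3 for Adcy3 (56.99) and replicate 6 for Pde4d (15.56). In liver MetR_CE it was replicate 3 for Adra2a, at 0.138 CPM or 2 counts.

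A difference in the effect of cold between the diets was called for 6 results, as log2 interactions of 2.27 for Adcy5 in iBAT, 1.92 for Adcy5 and -2.55 for Gpr3 in iWAT, and 2.31 for Adcy5, 0.76 for Pde3b and 0.91 for Prkar2b in eWAT. Each of these calls was lost under another setting or when a library was left out. Of all genes, 0.372% were called in iBAT, 1.65% in iWAT and 2.3% in eWAT.

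In the fit without the mouse as a block, a difference in response between depots was called in 26 of 54 comparisons. It is given as the log2 change in iWAT minus that in the other depot. Against iBAT under cold it was 1.02 for Adrb1, 1.21 for Pde4d and 0.69 for Prkar2b. Against iBAT under restriction it was 1.14 for Adrb1, 2.30 for Gpr3, 1.56 for Adcy3, 1.14 for Adcy5, 1.34 for Pde4d and 0.82 for Prkar2b. Against iBAT under both it was 1.30 for Adrb1, 1.23 for Adcy3, 1.39 for Adcy5, 1.28 for Pde4d and 1.27 for Prkar2b. Against eWAT under cold it was 2.08 for Adrb1, 2.92 for Gpr3, 2.05 for Adcy3, 0.70 for Pde3b and 1.06 for Prkar2b. Against eWAT under restriction it was 1.80 for Adrb1 and 0.86 for Prkar2b. Against eWAT under both it was 1.69 for Adrb1, 3.01 for Gpr3, 1.78 for Adcy3, 0.63 for Pde3b and 0.83 for Prkar2b. The depots of a mouse are not independent. With the mouse as a block, the iBAT calls of Gpr3, Adrb1 and Adcy5 under restriction and Adrb1 under cold were lost. So was the eWAT call of Gpr3 under cold. Of all genes, 10.5%, 4.65% and 12.7% were called against iBAT under cold, restriction and both. Against eWAT the shares were 3.14%, 2.43% and 10.7%.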

How the results depend on the processing

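No change that was called under any setting had the opposite sign under another, whereas some changes that were never called did change sign. Of the single log2 fold changes under settings other than leaving out a library, 549 kept their side of the threshold, 25 lost it and 17 gained it, and of the depot differences 72, 9 and 3. The number of the 9 genes called moved by over 1.5 times in these cases, and the cause was not tested. Without the fold limit the counts were 2 for liver MetR_RT (1 as reported), 5 for iBAT Ctrl_CE (3) and 1 for iWAT MetR_CE against Ctrl_CE (0). With the replicate block they were 0 for liver MetR_RT (Pde4d, adjusted p = 0.0579) and 0 for iBAT MetR_CE against Ctrl_CE (1), which was also 0 when grouped by the treatment tag and without the 3 libraries of disagreeing tags. The tag also gave 2 for iBAT MetR_RT (1) and 0 for the iBAT interaction (1). This grouping goes against title and tag of the same mice in the other tissues. The iWAT interaction count was 1 without a filter and 0 without the muscle-rich libraries (2), which also gave 2 for iWAT MetR_RT (6). With all eWAT libraries the counts were 0 for MetR_RT (1, also 0 when only the compared groups were fitted), 0 for the interaction (3), and, for differences from iWAT, 1 under restriction (2) and 3 under both (5). DESeq2 gave 4 for eWAT MetR_CE (2), and leaving out the epididymis-rich libraries 1. With the mouse as a block, 3 genes differed between iWAT and iBAT under restriction (6). The muscle and epididymis settings were chosen after seeing the data. Calls over all genes also moved under several of these settings. Grouping by the tag gave 5 for iBAT MetR_CE against Ctrl_CE (392 in the main fit). It gave 462 for iBAT MetR_RT (599) and 1 for the iBAT interaction (89). Without the muscle-rich libraries they were 7 for the iWAT interaction (435) and 1663 for iWAT MetR_RT (3067). With all eWAT libraries they were 6 for MetR_RT (32) and 1 for the interaction (640). For eWAT MetR_CE they were 666 with DESeq2 and 335 without the epididymis-rich libraries (360).

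Leaving out 1 library at a time gave 3 to 4 calls for iBAT Ctrl_CE, 1 for MetR_RT, 3 for MetR_CE, 1 for the interaction and 0 to 1 for MetR_CE against Ctrl_CE. In iWAT the ranges were 6 to 8, 5 to 6, 6 to 8, 1 to 3 and 0, and in eWAT 2 to 3, 1, 2 to 3, 3 to 5 and 2 to 5. By the mouse labels, same-numbered libraries of different groups came from different mice. Deviations of same-numbered libraries correlated above 0.1 in 4 of 42 pairs in liver, 16 of 36 in iBAT, 18 of 39 in iWAT and 15 of 30 in eWAT. Their median r was -0.003, -0.005, 0.083 and 0.109 in the same order. The r of these pairs ran from -0.198 to 0.216, -0.603 to 0.588, -0.417 to 0.609 and -0.593 to 0.699. Pairs of other numbers had medians of 0.006, -0.018, -0.003 and -0.021. How many of them exceeded 0.1 was not counted, and whether same-numbered and other pairs differ was not tested. Depth limits Gpr3 in all tissues, Adra2a in liver and iBAT, and Adrb1, Adcy3 and Prkar2b in liver, at 66 counts or fewer a library.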
